A study of Homo sapiens with 6 samples.

Results

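Ribosome biogenesis and RNA polymerase I genes were the 55 genes of this comparison, taken from the 27942 gene rows of the table by matching their symbols to a fixed list of polymerase subunits, rDNA factors and nucleolar assembly factors. The list was drawn up because oxaliplatin is known to act through nucleolar stress, and matching by symbol used no measured value, although the list was drawn up with earlier results of these data known. All 55 were found, and all 55 were among the 13727 genes that passed the filter on low counts, so that no member was left out of any count. By role they comprised 11 genes of RNA polymerase I transcription, 3 box C/D and 5 box H/ACA small nucleolar ribonucleoprotein (snoRNP) genes, 21 genes of small subunit assembly, 9 of large subunit assembly and 6 other nucleolar genes.

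The RNA came from HCT116, an established line of human colorectal carcinoma cells, grown in RPMI with fetal bovine serum; the labels and the methods differ on whether antibiotics were added. Of the 6 libraries, 3 were from untreated cells (NT) and 3 from cells exposed to 0.5 µM oxaliplatin for 24 h (OXA). Oxaliplatin is a platinum compound that crosslinks DNA, and no vehicle is named for the untreated cells. A single line was used, and neither the labels nor the methods say that the libraries of a group came from separate cultures, so the p-values measure the spread between these samples, which may be technical.

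Ribosomes are built in the nucleolus. RNA polymerase I, brought to the rDNA promoter by UBTF, the SL1 complex and RRN3, makes a long precursor that is modified under the guidance of snoRNPs, cut, folded and assembled with ribosomal proteins by a large set of factors into the small and the large subunit. Oxaliplatin and other agents that block RNA polymerase I disturb this process, and free ribosomal proteins can then bind MDM2 and stabilize p53. The libraries were made from poly(A) RNA, so the values below are mRNA levels of the factors. The rRNA itself was not measured.

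Total counts lay between 32979521 and 40967880 per library. The epithelial keratins KRT8 and KRT18, EPCAM and CDH1 were abundant, with a summed level of the 8 colon epithelial markers of 1981 to 2666 CPM (counts scaled to a library of 1000000) in NT and 2817 to 3160 in OXA. KRT8 and KRT18 supplied most of this sum. Among these markers CDX1 had no count in any library, LGALS4 had 0 to 3 and VIL1 39 to 95. CDX2 stood at 12.3 to 16.5 CPM over the 6 libraries. Summed raw counts of 5 leukocyte markers were 9 to 19 in NT and 2 to 7 in OXA, those of 5 fibroblast markers 118 to 290 and 195 to 282, and those of 4 endothelial markers 31 to 36 and 18 to 48. The leukocyte-defining PTPRC and CD3E had 0 to 2 and 0 to 1 counts, DCN had 0, and COL1A1 supplied most of the fibroblast sum. The part of these marker differences in the results below was not tested.

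NT library 1 stood apart from NT 2 and NT 3. The mean squared difference per gene in units of counting error was 83.1 and 75.7 for the pairs with NT 1, against 21.4 for NT 2 and NT 3 and 19.2 to 29.6 among the OXA libraries. Its deviation followed base composition: over the 55 members, the difference in log2 CPM between NT 1 and the mean of NT 2 and NT 3 had a Pearson correlation of -0.88 (Spearman -0.89) with the GC content of the transcript, and over 13675 genes it was -0.74. OXA 1 deviated from OXA 2 and OXA 3 in the same manner, with a correlation of -0.76 over the members. These are correlations across genes of the same libraries, which are not independent replicates. Same-numbered NT and OXA libraries also deviated together from their group means, with r = 0.71, 0.71 and 0.41 over all genes tested, against -0.60 to 0.15 for unequal numbers. Deviations within a group cancel out by construction, so the values for unequal numbers are not independent of those for equal numbers. Because same-numbered libraries deviated together, results are given without a block and, where this changed the call, also from a model that holds the replicate number as a block.

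**Figure D1:**
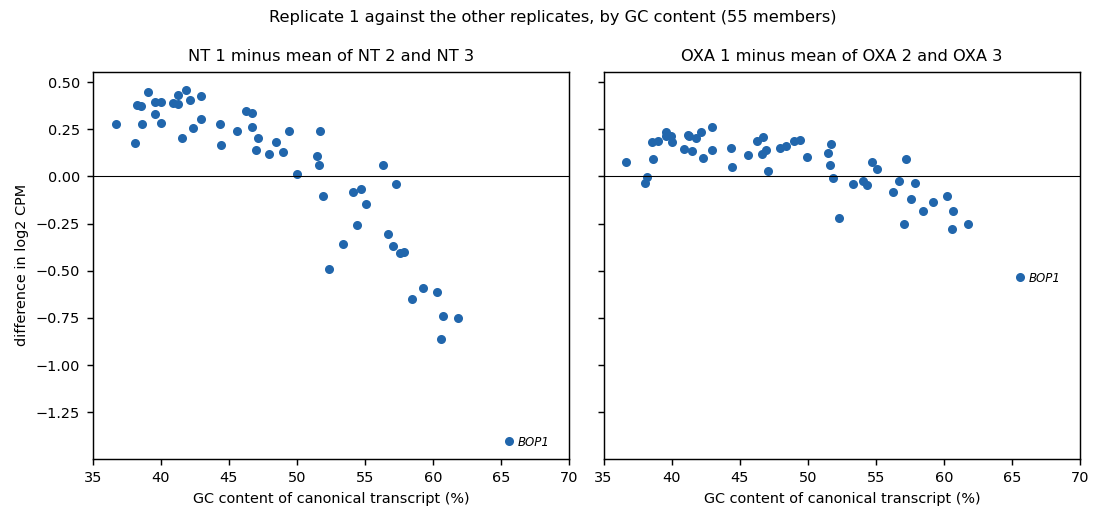
Difference in log2 CPM (vertical axis) between NT 1 and the mean of NT 2 and NT 3 (left) and between OXA 1 and the mean of OXA 2 and OXA 3 (right), against the GC content in percent of each member's canonical transcript (horizontal axis); each point is 1 of the 55 members. GC-poor members were higher and GC-rich members lower in replicate 1 of both groups, with BOP1 the lowest point at -1.40 in NT 1.

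Most members were slightly higher in OXA than in NT. The median log2 fold change of the 55 was 0.21, against 0.02 for all genes tested, and 50 of 55 (90.9%) lay above 0, against 53.3% of all genes. The count above 0 was 45 with library totals or upper quartile factors, where the median of all genes was -0.02. It was 41 without NT 2, the fewest in any fit, where the median of all genes was 0.003. The individual differences were small: the log2 fold changes ran from -0.42 for UBTF to 0.70 for RRP12, with standard errors (SE) of 0.08 to 0.38. Without a block, the quasi-likelihood test of edgeR, with p-values adjusted over all genes by the Benjamini-Hochberg method, called 2 members higher, NOP2 and POLR1A (2.78% of all genes were called higher), and 1 lower, UBTF (2.29% of all genes). DESeq2 without a block called 8 higher (4.64% of its genes) and 1 lower (4.41%). At an unadjusted p under 0.05, 17 members were higher (10.7% of all genes) and 1 lower (11.1%). With the replicate block, 25 members (45.5%) were called higher, against 12.1% of all genes, and 1 lower, again UBTF, against 10.9%. CPM is relative to all counts of a library, and in bulk RNA a change in the number of cells that express a gene and a change of its RNA per cell cannot be told apart.

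Counted without a model, all OXA values exceeded all NT values for 16 members (29.1%, against 14.5% of all genes) and were below all of them for 1 (14.4% of all genes), and the groups overlapped for 38. In the same-numbered pairs, OXA was higher than NT in all 3 pairs for 37 members (67.3%, against 33.8% of all genes) and lower in all 3 for UBTF and NOP58 (27.6% of all genes). Relative to the mean of the NT libraries, the median member stood at 0.12, -0.05 and -0.05 on the log2 scale in NT 1, NT 2 and NT 3 and at 0.28, 0.14 and 0.22 in OXA 1, OXA 2 and OXA 3. The lowest OXA library thus lay above the highest NT library by little. Together the members took 1.23%, 1.10% and 1.03% of the counts of the NT libraries and 1.26%, 1.18% and 1.17% of those of the OXA libraries. These shares overlapped, and NPM1 and NCL supplied 31.9% to 38.0% of the members' counts in each library.

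**Figure D2:**
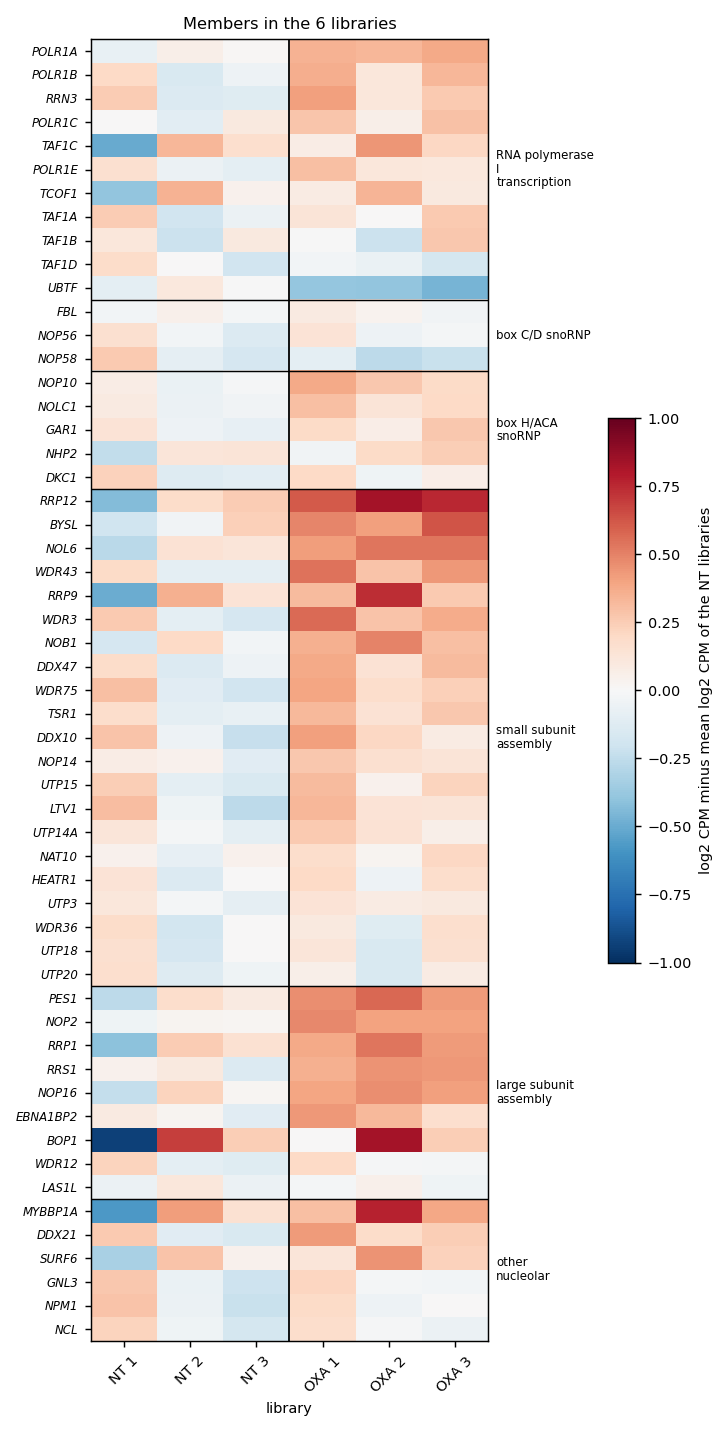
Level of the 55 members (rows, grouped by role) in the 6 libraries (columns), as log2 CPM minus the mean log2 CPM of the 3 NT libraries, red above and blue below that mean. Columns OXA 1 to OXA 3 are mostly red, UBTF is the bluest row among them, NOP58 and TAF1D are also below the NT mean in all 3, and NT 1 departs in both directions, most in BOP1, MYBBP1A and TAF1C.

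The calls depended on single libraries. Without NT 1, 12 members were called higher (4.49% of all genes tested in that fit) and UBTF was called lower (4.11% of all genes); all 12 were among the 25 called with the block. Without NT 2, NT 3, OXA 1, OXA 2 or OXA 3, edgeR called 0 members in either direction, where 0.474% to 1.10% of all genes were called higher and 0.136% to 1.05% lower. At an unadjusted p under 0.05, these fits had 9 to 17 members higher, against 6.93% to 9.50% of all genes, and 1 to 2 lower, against 7.11% to 12.1%. In the block, leaving out both libraries of a number called 38 members higher without replicate 1 (21.2% of all genes), 11 without replicate 2 (6.95%) and 14 without replicate 3 (13.7%). UBTF alone was called lower each time, where 20.2%, 4.89% and 8.66% of all genes were. The direction was steadier than the calls: 37 of the 55 members, including all 25 called higher with the block, kept their sign in all 23 alternative settings. These settings reuse the same 6 libraries or a part of them. The 25 were picked by the block fit, itself 1 of the settings, so their kept sign is no separate support.

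Stretches upstream of the starts of 5 genes called higher with the block and of UBTF, which fell, are shown here, chosen after their values were seen and limited to bases outside every annotated exon. They are from RefSeq on GRCh38.p14, written 5′ to 3′ along the gene. Capitals mark a GC box, a site of the SP1 family (GGGCGG or its reverse complement CCGCCC), or an E-box (CACGTG, its own reverse complement), the element bound by MYC, which is known to drive genes of ribosome biogenesis. UBTF has 2 starts in the table, and its stretches and that of PES1 lie inside the longest annotated span of their gene.
WDR43, chr2:28894517-28894666, plus strand, 150 to 1 bases before the start: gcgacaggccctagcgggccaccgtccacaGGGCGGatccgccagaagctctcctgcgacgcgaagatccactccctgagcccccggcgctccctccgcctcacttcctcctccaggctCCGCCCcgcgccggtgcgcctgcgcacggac
BYSL, chr6:41921349-41921498, plus strand, 150 to 1 bases before the start: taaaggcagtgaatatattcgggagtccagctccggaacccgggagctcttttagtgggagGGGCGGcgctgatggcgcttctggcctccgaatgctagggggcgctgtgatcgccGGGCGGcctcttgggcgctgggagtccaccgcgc
NOL6, chr9:33473931-33474080, minus strand, 156 to 7 bases before the start: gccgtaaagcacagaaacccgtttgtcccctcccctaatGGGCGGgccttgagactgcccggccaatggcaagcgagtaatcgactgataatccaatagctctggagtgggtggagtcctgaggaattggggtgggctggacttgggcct
NOP10, chr15:34343181-34343314, minus strand, 178 to 45 bases before the start: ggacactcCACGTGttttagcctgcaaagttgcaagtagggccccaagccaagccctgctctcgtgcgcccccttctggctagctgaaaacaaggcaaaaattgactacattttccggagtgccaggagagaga
UBTF, chr17:44220964-44221113, minus strand, 231 to 82 bases before the start: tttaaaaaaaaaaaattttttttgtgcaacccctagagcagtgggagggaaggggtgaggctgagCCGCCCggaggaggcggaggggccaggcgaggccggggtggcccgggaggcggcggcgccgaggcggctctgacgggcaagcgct
UBTF, chr17:44219751-44219900, minus strand, 225 to 76 bases before the start: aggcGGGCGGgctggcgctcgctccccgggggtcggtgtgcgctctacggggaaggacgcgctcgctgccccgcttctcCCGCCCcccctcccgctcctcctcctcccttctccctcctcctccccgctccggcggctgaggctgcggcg
PES1, chr22:30591911-30592060, minus strand, 150 to 1 bases before the start: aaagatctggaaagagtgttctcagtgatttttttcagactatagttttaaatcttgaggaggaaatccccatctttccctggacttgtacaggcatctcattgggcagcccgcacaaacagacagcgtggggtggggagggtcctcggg
WDR43 and BYSL each held 2 GC boxes in these letters, NOL6 held 1, the stretches of UBTF held 1 and 2, NOP10 held an E-box, and PES1 held neither motif. NOP2 and POLR1A, which edgeR called higher without the block, are not shown. The 250 bases before their starts held neither motif. RRP12 had no promoter entry. In the 250 bases before the start, an E-box was present in 8 of the 48 members with a promoter entry (16.7%), against 9.73% of 15843 protein-coding genes, and a GC box in 32 (66.7%), against 62.1%; the motifs were searched on both strands, separately, so that they may overlap. The median log2 fold change was 0.20 for the 8 members with an E-box and 0.20 for the 40 without, and it was 0.20 for the 32 with a GC box and 0.18 for the 16 without. Neither motif thus separated the members by their difference. A match is a match of letters and not a site shown to be bound.

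The 11 genes of RNA polymerase I transcription had a median log2 fold change of 0.17. Of these, 1 was called higher and 1 lower without the block (2.78% and 2.29% of all genes). With it, 4 were called higher and 1 lower, against 12.1% and 10.9% of all genes. POLR1A (ENSG00000068654, chr2:86020216-86106155, minus strand, GRCh38), which encodes the largest, catalytic subunit of the polymerase, was at 146, 160.0 and 154 CPM in the NT libraries and at 195, 193 and 199 CPM in OXA. The groups did not overlap, and all 3 OXA values lay within a narrow band. Its log2 fold change was 0.35 (SE 0.079; adjusted p = 0.0483 by edgeR; with the block 0.00982). The call was lost without any 1 library other than NT 1, at log2 fold changes of 0.31 to 0.36 and edgeR adjusted p of 0.0923 to 0.191. It was also lost in edgeR with upper quartile factors (adjusted p = 0.0533), library totals alone (0.0531) or no filter (0.0803), and in limma with voom weights (0.0504) or on the authors' normalized signal (0.502, where the log2 fold change was 0.19).

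UBTF (ENSG00000108312, chr17:44205033-44221626, minus strand), the HMG-box factor that keeps rDNA open and nucleates the promoter complex, went the other way. Its level was 156, 179.6 and 167 CPM in NT and 128, 127 and 121 CPM in OXA. Each OXA library was below each NT library, and the decrease was seen in each same-numbered pair (-0.29, -0.50 and -0.46 on the log2 scale). The log2 fold change was -0.42 (SE 0.086; adjusted p = 0.0374 by edgeR; with the block 0.00882). UBTF was called lower in all alternatives that kept all 6 libraries and, in the block, without each pair; without NT 2, NT 3 or any 1 OXA library, its edgeR adjusted p was 0.0739 to 0.160 at log2 fold changes of -0.45 to -0.40.

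Of the other polymerase genes, POLR1B, the second largest subunit, was at 146, 115 and 122 CPM in NT and 164, 138 and 160.4 CPM in OXA. POLR1C, a subunit shared with RNA polymerase III, was at 52.9, 49.0 and 56.3 CPM in NT and 63.8, 54.8 and 64.6 CPM in OXA. RRN3, the factor that makes the polymerase competent to initiate, was at 185, 141 and 142 CPM in NT and 206, 168 and 185 CPM in OXA. In these 3 genes the groups overlapped, whereas each OXA library exceeded the NT library of the same number. None passed without the block (edgeR adjusted p = 0.245, 0.292 and 0.319), and all passed with it (0.0273, 0.0450 and 0.0299) at log2 fold changes of 0.27, 0.21 and 0.26. RRN3 has 3 annotated pseudogenes, so its counts are uncertain. The same holds for the other members with a pseudogene of their name: NOP56, NHP2, NOLC1, DDX10, LTV1, PES1, NCL, NPM1 and SURF6. TAF1D, an SL1 subunit and per kilobase the most abundant transcript of the role, was at 104, 92.3 and 80.6 CPM in NT and 90.4, 87.9 and 81.5 CPM in OXA, which overlapped (log2 fold change -0.09, edgeR adjusted p = 0.685). The SL1 subunits TAF1A, TAF1B and TAF1C passed in neither fit, nor did POLR1E and TCOF1, which encodes the nucleolar phosphoprotein treacle. Their log2 fold changes were 0.03 to 0.21.

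**Figure D3:**
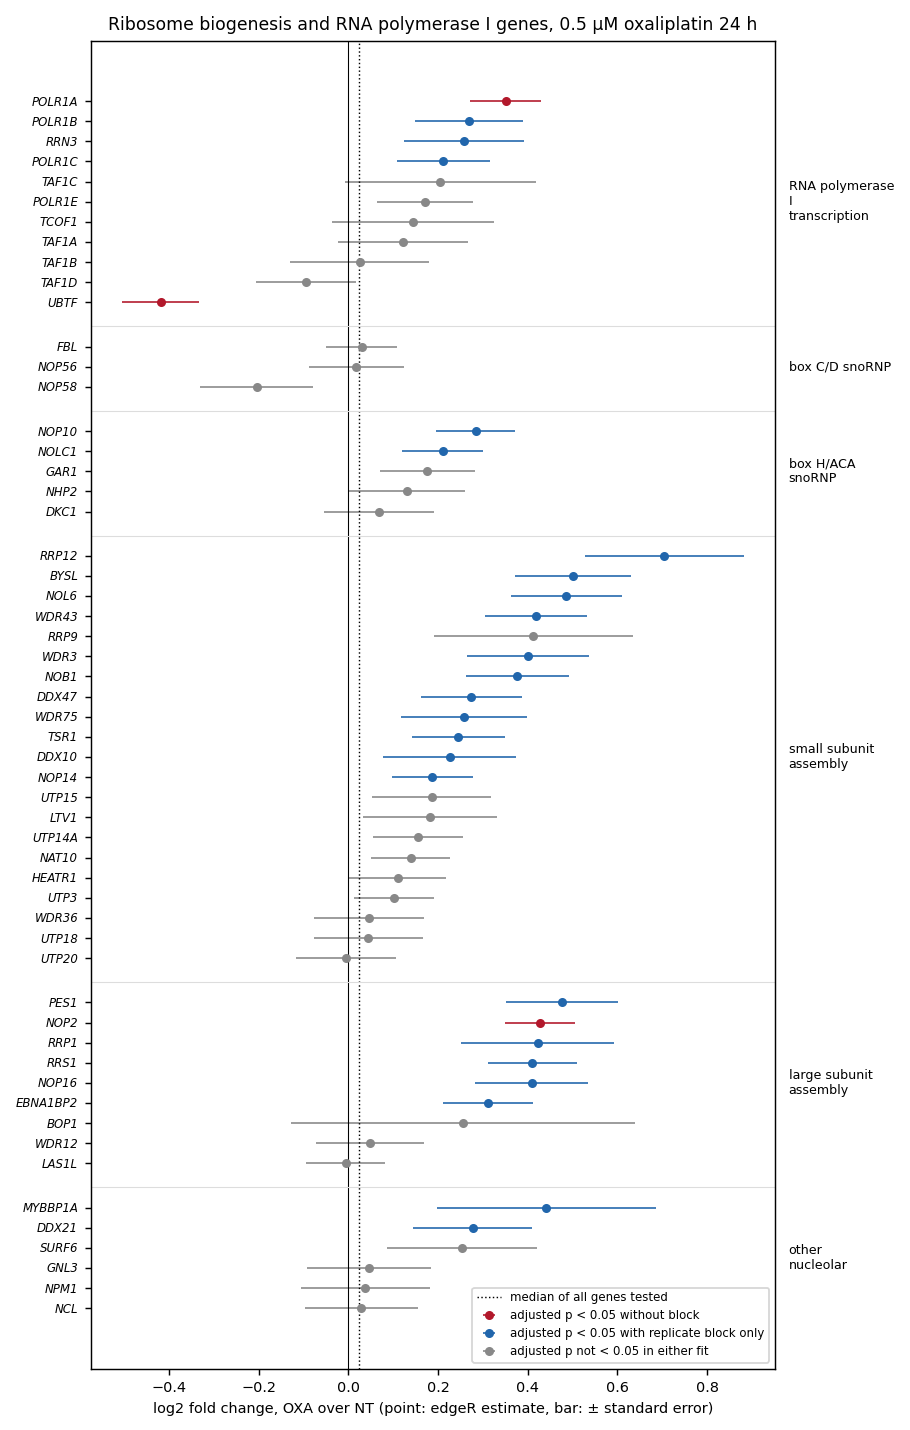
Log2 fold change of OXA over NT (horizontal axis) for each of the 55 members by role, with points for the edgeR estimate without a block and bars for ± 1 standard error; red marks the 3 members edgeR called without the block, blue those called with it only, grey those called in neither. The dotted line is the median of all genes tested (0.02), and 50 of the 55 points lie above 0.

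The 9 genes of large subunit assembly had the highest median of the 6 roles, 0.41 on the log2 scale. In the block, edgeR called 6 of 9 higher (12.1% of all genes), and without it 1 of them, NOP2 (2.78% of all genes). DESeq2 without a block called NOP2, PES1 and RRS1 (4.64% of its genes were called higher). NOP2 (ENSG00000111641, chr12:6556863-6568691, minus strand), a methyltransferase of the large subunit rRNA, was at 122, 129 and 128 CPM in NT and 176, 167 and 166 CPM in OXA. Both groups were tight and lay well apart. It had the smallest p of all members, with a log2 fold change of 0.43 (SE 0.077; adjusted p = 0.0251 by edgeR; with the block 0.00690). Without NT 1 its edgeR adjusted p was 0.0216, and without any 1 of the other libraries it was 0.0652 to 0.148 at log2 fold changes of 0.40 to 0.44; on the authors' normalized signal limma gave 0.0655.

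PES1, which with BOP1 and WDR12 forms the PeBoW complex of the large subunit, was at 149, 201 and 190.3 CPM in NT and 246, 265 and 240.3 CPM in OXA. RRS1, which helps to bring the 5S particle into the precursor, was at 38.4, 39.9 and 34.0 CPM in NT and 47.9, 50.9 and 50.5 CPM in OXA. In both genes the groups were separate, and NT 1 was the lowest library of PES1. Without the block neither passed in edgeR (adjusted p = 0.0723 and 0.0580), whereas both passed in DESeq2 (adjusted p = 0.0174 and 0.0326). With the block both passed in edgeR (adjusted p = 0.0151 and 0.0161) at log2 fold changes of 0.49 and 0.41. BOP1 ranged from 32.4 to 99.8 CPM within NT and had a log2 fold change of 0.25 with the largest SE of any member, 0.38. WDR12 had a log2 fold change of 0.05, and neither BOP1 nor WDR12 passed in either fit. PES1 has 2 pseudogenes of its name.

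NOP16, an assembly factor of the nucleolus, was at 38.6, 53.3 and 46.2 CPM in NT and 60.0, 62.9 and 60.5 CPM in OXA. EBNA1BP2, the human homologue of yeast Ebp2 and per kilobase the most abundant transcript of the role, was at 138, 133 and 120.5 CPM in NT and 176, 163 and 147 CPM in OXA. RRP1, required for processing of the precursor, was at 25.7, 40.7 and 37.9 CPM in NT and 44.4, 49.5 and 45.9 CPM in OXA. The groups were separate in all 3. The log2 fold changes were 0.41, 0.31 and 0.42, with edgeR adjusted p = 0.109, 0.126 and 0.204 without the block and 0.0231, 0.0109 and 0.0423 with it. Without NT 1 and without a block, they were 0.30, 0.36 and 0.25 (edgeR adjusted p = 0.0979, 0.0681 and 0.158). LAS1L, part of the nuclease complex that cuts the spacer before the large subunit rRNA, had a log2 fold change of -0.01 and passed in neither fit.

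Of the 21 genes of small subunit assembly, 20 lay above 0, and the median log2 fold change was 0.23. None was called by edgeR without the block (2.78% of all genes were called higher and 2.29% lower). With it, 11 were called higher and 0 lower (12.1% and 10.9% of all genes). At an unadjusted p under 0.05 there were 8 higher and 0 lower (10.7% and 11.1% of all genes). DESeq2 called RRP12, NOL6, BYSL and WDR43 (4.64% of its genes were called higher). RRP12 (chr10:97356358-97426076, minus strand), which takes part in the export and maturation of pre-ribosomes, had the largest fold change of any member. It was at 44.9, 68.8 and 72.2 CPM in NT and 92.5, 108 and 102 CPM in OXA. Every OXA library exceeded every NT library, and the low NT 1 widened the difference. The log2 fold change was 0.70 (SE 0.18; adjusted p = 0.0654 by edgeR; with the block 0.00946), and without NT 1 it was 0.52 with an edgeR adjusted p of 0.0144.

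NOL6, a core protein of the small subunit processome, was at 56.8, 75.8 and 74.5 CPM in NT and 91.5, 99.1 and 99.4 CPM in OXA. BYSL, which binds the pre-40S particle, was at 43.3, 48.7 and 58.6 CPM in NT and 70.0, 66.2 and 76.9 CPM in OXA. The groups were separate in both genes, and replicate 1 gave the largest of the 3 pair differences in each (0.69 on the log2 scale in NOL6 and 0.69 in BYSL). Without the block neither passed in edgeR (adjusted p = 0.0693 and 0.0701), and both passed with it (0.00993 and 0.00982) at log2 fold changes of 0.50 and 0.51. NOB1, the nuclease that makes the 3′ end of 18S rRNA and per kilobase with DDX47 the most abundant transcript of this role, was at 102, 132 and 113 CPM in NT and 147, 162 and 141 CPM in OXA, without overlap (log2 fold change 0.38, edgeR adjusted p = 0.108; with the block 0.0128).

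Several processome proteins are built of WD repeats. WDR43 was at 236, 193 and 193 CPM in NT and 300.3, 252 and 279 CPM in OXA. WDR3 was at 236, 184 and 175 CPM in NT and 291, 240.0 and 254 CPM in OXA. WDR75 was at 166, 125 and 119 CPM in NT and 178, 153 and 159.7 CPM in OXA. The groups were separate in WDR43 and WDR3 and overlapped in WDR75, and NT 1 was the highest NT library in each, the opposite of RRP12 and NOL6. The edgeR adjusted p without the block was 0.0814, 0.140 and 0.344, and with it 0.00748, 0.00993 and 0.0473, at log2 fold changes of 0.42, 0.41 and 0.27. WDR36 had a log2 fold change of 0.05 and passed in neither fit; the difference between these genes was not tested.

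Among the remaining small subunit genes, the helicase gene DDX47 was at 142, 114 and 121 CPM in NT and 162, 138 and 155 CPM in OXA. TSR1, a GTPase-like factor of late pre-40S particles, was at 231, 191 and 194 CPM in NT and 257, 227 and 247 CPM in OXA. NOP14, a processome component, was at 147, 143 and 129 CPM in NT and 168, 156 and 153 CPM in OXA. The groups overlapped in DDX47 and TSR1 and were just separate in NOP14, and all 3 passed with the block only (edgeR adjusted p = 0.0209, 0.0289 and 0.0478). RRP9, which binds the U3 snoRNA, was at 39.2, 70.4 and 60.6 CPM in NT and 68.7, 91.8 and 66.2 CPM in OXA. Its log2 fold change of 0.41 passed in neither fit (edgeR adjusted p = 0.337; with the block 0.0577). DDX10, a second helicase gene, was at 134, 106 and 94.0 CPM in NT and 147, 128 and 117 CPM in OXA; the groups overlapped, and it passed with the block only (edgeR adjusted p = 0.0363). The others, among them HEATR1, NAT10, LTV1 and the UTP genes, had log2 fold changes of -0.01 to 0.19.

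**Figure D4:**
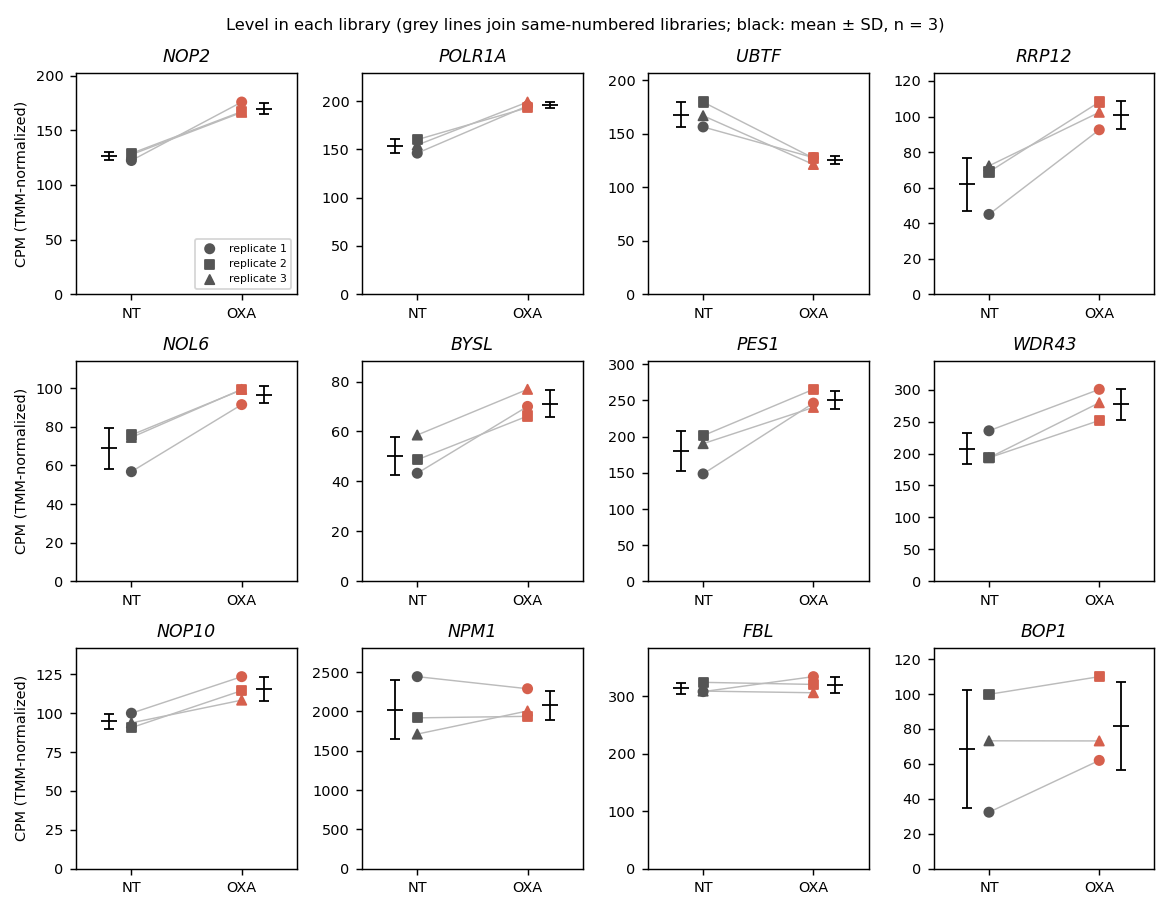
Level in CPM (vertical axis, from 0) of 12 members in the NT (grey) and OXA (red) libraries, with a symbol for each replicate number, lines joining same-numbered libraries and black bars for the mean ± SD (n = 3). NOP2, POLR1A, RRP12, NOL6, BYSL, PES1, WDR43 and NOP10 are above NT in every OXA library and UBTF is below; NPM1, FBL and BOP1 overlap.

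The snoRNP genes form the particles that modify rRNA, and the difference between their 2 classes was not tested. None of the 3 box C/D genes, which build the particles that methylate rRNA, passed in either fit. Of all genes, 2.78% were called higher and 2.29% lower without the block, and 12.1% and 10.9% with it. FBL, the methyltransferase fibrillarin and per kilobase the most abundant of the 3, was at 308, 324 and 309 CPM in NT and 334, 320.3 and 306 CPM in OXA. The groups overlapped, and the log2 fold change was 0.03 (SE 0.080; adjusted p = 0.872 by edgeR); its sign was negative with upper quartile factors and with library totals alone (-0.01 for both). NOP56 had a log2 fold change of 0.02. NOP58, at 189.8, 149 and 141 CPM in NT and 148, 132 and 136 CPM in OXA, was lower in all 3 pairs without passing (log2 fold change -0.20, edgeR adjusted p = 0.402; with the block 0.0979).

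All 5 box H/ACA genes, which serve pseudouridylation and, in part, telomerase, lay above 0. With the block 2 of the 5 were called higher and without it 0, against 12.1% and 2.78% of all genes. NOP10, the smallest core protein of the particle, was at 99.9, 90.6 and 93.7 CPM in NT and 123, 114 and 108 CPM in OXA. NOLC1, the chaperone Nopp140 and with NOP10 the most abundant of the 5 per kilobase, was at 768, 692 and 701 CPM in NT and 888, 787 and 825 CPM in OXA. The groups were separate in both, and both passed with the block only (edgeR adjusted p = 0.0174 and 0.0259; without it 0.113 and 0.226) at log2 fold changes of 0.28 and 0.21. DKC1, the pseudouridine synthase dyskerin, had a log2 fold change of 0.07, GAR1 one of 0.18 and NHP2 one of 0.13, and none of these passed.

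Of the 6 other nucleolar genes, 2 were called higher with the block and 0 without it (12.1% and 2.78% of all genes). NPM1 encodes nucleophosmin, a histone and ribosome chaperone that leaves the nucleolus under nucleolar stress, and it was per kilobase the most abundant of all members. It was at 2442, 1918 and 1712 CPM in NT and 2288, 1938 and 2006 CPM in OXA. The OXA values lay inside the range of NT, and the log2 fold change was 0.04 (SE 0.14; adjusted p = 0.912 by edgeR), with a sign that turned with library totals alone (-0.00226) and with upper quartile factors (-0.00353). NPM1 has 49 pseudogenes of its name, so its counts are uncertain. NCL, nucleolin, overlapped likewise (log2 fold change 0.03, edgeR adjusted p = 0.923). DDX21, a helicase of rRNA and of polymerase II transcripts, was at 579, 448 and 434 CPM in NT and 649.6, 549.9 and 571 CPM in OXA. MYBBP1A, a nucleolar protein linked to p53, was at 50.3, 100.3 and 83.3 CPM in NT and 92.1, 128 and 98.0 CPM in OXA. Both overlapped between the groups and passed with the block only (edgeR adjusted p = 0.0235 and 0.0425; without it 0.277 and 0.350) at log2 fold changes of 0.29 and 0.48. Without NT 1 and without a block, the log2 fold change was 0.42 for DDX21 (edgeR adjusted p = 0.0340) and 0.21 for MYBBP1A (0.422). GNL3, which encodes nucleostemin, and SURF6 passed in neither fit.

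The GC content along which NT 1 deviated was set against the values of all members. The 26 members above the median GC content of all genes (48.8%) had a median log2 fold change of 0.28, against 0.11 for all genes above it, and 14 of them (53.8%) were called higher with the block, against 14.6%. The 29 members below it had a median of 0.16, against -0.04, and 11 (37.9%) were called higher, against 9.70%. In both classes the median and the share called were higher for the members than for all genes of the class. The split is coarse, so members and other genes of a class may still differ in GC content. Over the members, the log2 fold change had a Pearson correlation of 0.38 with GC content, and over all genes one of 0.24. The part of GC content in the differences was not tested. When each library's trend on GC content and transcript length was removed in the block, 37 members were called higher (23.4% of all genes) and 3 lower, UBTF, FBL and NOP58 (22.1% of all genes).

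A further feature that the choice of members did not use was the presence of snoRNA genes. GENCODE places snoRNA genes inside 9 members, which carry them in their introns or exons: TAF1D, NOP56, NOP58, DKC1, WDR43, TSR1, NCL, GNL3 and POLR1C. The median log2 fold change of these 9 was 0.05 and that of the other 46 was 0.22. With the block, 3 of 9 and 22 of 46 were called higher, against 12.1% of all genes. The ranges overlapped, from -0.20 to 0.42 and from -0.42 to 0.70, and the difference was not tested.

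Other genes of the pathway were also mostly above 0 (79.4%, against 53.3% of all genes). Of 160 genes in 7 lists (further RNA polymerase I subunits and rDNA factors, further small and large subunit factors, the exosome and RNase MRP, subunits of RNA polymerases III and II, and the link from the 5S particle to p53), all 160 were tested, 6 were called higher and 0 lower by edgeR without the block (2.78% and 2.29% of all genes; 3 lower at an unadjusted p under 0.05, and 1 lower by DESeq2), and 47 (29.4%) were called higher and 4 lower with it, against 12.1% and 10.9% of all genes. The 4 were SMARCA5, a chromatin remodeler, NOP9, AFG2A and EXOSC9, an exosome subunit, named after their values were seen. CDKN1A and MDM2, direct targets of p53, rose most. CDKN1A was at 143 ± 25.2 CPM (SD, n = 3) in NT and 1087 ± 80.4 in OXA, a log2 fold change of 2.93, and MDM2 at 175 ± 20.3 and 815 ± 78.0, one of 2.22 (edgeR adjusted p = 0.000445 for both). The other 4 called without the block were the large subunit factors WDR74 (log2 fold change 0.54, adjusted p = 0.0428 by edgeR) and URB1 (0.43 and 0.0426), the small subunit factor RCL1 (0.45 and 0.0426) and the RNA polymerase III subunit POLR3D (0.47 and 0.0419). Without the list on the 5S particle and p53, the median of the remaining 154 genes was 0.15, and 44 of them (28.6%) were called higher with the block. By list, and against the same 12.1% of all genes, the block called 20 of 52 large subunit factors higher, 11 of 40 small subunit factors, 7 of 25 genes of the exosome and RNase MRP, 4 of 15 RNA polymerase III subunits, 2 of 12 RNA polymerase II subunits and 0 of 10 RNA polymerase I subunits and rDNA factors. The RNA polymerase II subunits had a median log2 fold change of 0.21, as had the members, and 10 of 12 lay above 0. A median of this size was thus not particular to the members.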

How the data were processed

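RNA-seq libraries of HCT116 cells (3 NT, 3 OXA), sequenced as paired 100 nt reads from a stranded poly(A) protocol, were grouped and numbered by their labels. The submitters' processing notes name Trimmomatic 0.32, STAR 2.7.5b, RSEM 1.3.3 and DESeq2 2.13 and the build GRCh38; the annotation and the strand setting of the counting are not given in the sources used here, so reads of overlapping genes cannot be assigned with certainty. Per gene and library, the authors deposited a raw count (a whole number), used for all results, and a normalized signal, the count scaled by factors that differ between genes, which was used for 1 alternative.

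Genes were filtered with filterByExpr (minimum count 10, minimum total 15), which left 13727 of 27942, normalized by TMM and compared with edgeR 4.0.16 (quasi-likelihood test, limma 3.58.1, R 4.3.3), with p-values adjusted by Benjamini-Hochberg over the genes tested and a threshold of 0.05. SE was taken as the log2 fold change over the square root of F. CPM are TMM-normalized counts scaled to 1000000. An exact permutation of 3 against 3 libraries cannot go below p = 0.1, so none was used. Positions, lengths and GC content are from GENCODE 44 on GRCh38; promoters are from RefSeq on GRCh38.p14, with entries for 48 of 55 members. The code was tested on simulated counts.

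The labels do not say what a replicate number stands for; the numbers were taken to pair the libraries because all 3 correlations of their deviations were over 0.1. The members and lists were chosen with earlier results of these data known. Values per library are given for the 25 members with the smallest p, the most abundant of each role per kilobase, and others singled out after their values were seen (NOP58, MYBBP1A and DDX10). Alternatives were other factors and filters, DESeq2 1.42.0, limma-voom, the authors' signal (log2 of the value plus 1), the block, GC and length trends, and left-out libraries; block fits with other factors or DESeq2 were added after seeing the data.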

Additional observations from a re-analysis of the deposited data

How the results depend on the processing

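The median of the members stayed between 0.13 and 0.22 on the log2 scale in all 23 alternatives, and 429 of 644 repeats over 28 named members kept direction and side of the threshold (178 passed where they had not, 22 no longer passed, 15 turned sign). The number of members called higher was 2 (2.78% of all genes). It was 1 with upper quartile factors, library totals, no filter and limma-voom, and 0 with the authors' signal. These fits called 1.71% to 2.73% of all genes higher. DESeq2 called 8 members (4.64% of its genes), and 0 to 12 were called when 1 library was left out (0.474% to 4.49% of all genes). With the replicate block the number called higher was 25 (12.1% of all genes), and with GC and length trends removed 37 (23.4%). Without replicate 1, 2 and 3 in the block it was 38, 11 and 14 (21.2%, 6.95% and 13.7%). In the block fits added after seeing the data it was 26 (RLE), 21 (library totals and upper quartile factors) and 24 (DESeq2). Those added fits called 10.3% to 13.1% of all genes higher. Members called lower numbered 1, or 3 with trends removed, and 0 to 1 without 1 library. Of all genes, 2.29% were called lower in the main fit, 10.9% with the block and 22.1% with trends removed. Without 1 library the shares were 0.136% to 4.11%.

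Other pathway genes called higher numbered 6, 3 without a filter, 2 with the authors' signal, 2 to 17 without 1 library, 47 with the replicate block, 87 with trends removed, 90, 16 and 31 without replicate 1, 2 and 3 in the block, and 48, 32, 32 and 44 in the added block fits. Of all genes, these fits in turn called higher 2.78%, 1.71%, 1.72%, 0.474% to 4.49%, 12.1% and 23.4%. Without replicate 1, 2 and 3 in the block the shares were 21.2%, 6.95% and 13.7%, and in the added fits 10.3% to 13.1%. Those called lower numbered 0, 1 with upper quartile factors, library totals or DESeq2, 4 with the block, 12 with trends removed, 11, 1 and 2 without a pair, and 4, 7, 6 and 4 in the added fits. Of all genes, these fits in turn called lower 2.29%, 3.59% to 4.41%, 10.9% and 22.1%. Without a pair the shares were 20.2%, 4.89% and 8.66%, and in the added fits 9.97% to 13.8%.

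Signs turned for FBL with upper quartile factors (-0.00942), library totals (-0.00993), both in the block (-0.0101 and -0.0102), trends removed (-0.179) and without replicate 1 in the block (-0.0147), for NPM1 with upper quartile factors (-0.00353), library totals (-0.00226) and without replicate 3 in the block (-0.0494), and without 1 library for FBL (-0.0129 to 0.0302), NPM1 (-0.104 to 0.195) and TAF1D (-0.216 to 0.00283). Library totals moved the calls over all genes from 381 higher and 315 lower to 350 and 511, and upper quartile factors to 348 and 493. The causes were not tested. Each member had at least 632 counts in every library; each group had 3 libraries.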
